A study of Sus scrofa with 12 samples.

Results

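A set of matricellular and adhesive matrix proteins and the TIMP family were examined in pig induced pluripotent stem cells. The genes were THBS1, TNC, SPARC, TGFBI, FBLN1, FN1 and DCN, together with TIMP1, TIMP2 and TIMP3. They are the 10 rows that carry these symbols among the 24358 genes listed in each of 2 tables of FPKM, a level scaled to gene length and to the size of the library, and they were read in all 12 libraries.

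All libraries came from PC-iPS, pluripotent cells reprogrammed from pig pericytes, with 3 libraries in each of 4 groups. WT was unmodified PC-iPS, and KI was the NANOG knock-in reporter PC-iPS, in which a tdTomato and puromycin resistance cassette had been joined to NANOG with CRISPR/Cas9. The KI lines were selected with puromycin, sorted for tdTomato and grown from mixed populations, so that a line is not a single clone and may hold unedited cells. WT and KI were kept in LCDMV, a medium with LIF and small-molecule inhibitors, and shared 1 table. Act and SB shared the other table and were knock-in reporter cells in the same medium without LIF, given either Activin A, a ligand that signals through SMAD2 and SMAD3, or SB431542, an inhibitor of the receptors of that pathway. Doses and times of the sequenced treatments are not given in the labels. Before RNA extraction, feeder cells were left behind by attachment, and the species of the feeders is not given in the sources used here. Libraries are called by their group and number below, and the KI numbers match those of 3 separately derived lines, whereas nothing says whether the 3 libraries of WT, Act or SB came from separate cultures, so p-values measure the spread between these libraries, which may be technical.

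Matricellular proteins are secreted into the matrix but mostly act on cells rather than bear load: they bind integrins, syndecans and growth factors, and are abundant in embryonic and healing tissue. Thrombospondin-1 (THBS1) can release TGF-β from its latent complex, and TNC and SPARC loosen cell adhesion. TIMPs inhibit matrix metalloproteinases, and TIMP3 stays bound to the matrix and also inhibits ADAM and ADAMTS proteases, whereas TIMP1 and TIMP2 are soluble.

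Low FPKM values fell on steps, whose spacing gave the relative depth of the libraries. Taking KI 1 as 1, the depth was 0.731 to 1 in KI, 0.565 to 0.634 in WT, 0.861 to 0.981 in Act and 0.839 to 0.946 in SB, so that the WT libraries were the shallowest and depth moved with the first comparison. Each of these depths is an estimate that rests on 32 to 51 genes, among 356 to 568 genes with low values in both libraries. The absolute depth is unknown. NANOG, whose targeted sequence is the same at loci on 2 chromosomes, so that its reads may be split, was 52.0, 101 and 70.4 FPKM in KI and 9.71, 16.4 and 27.6 in WT, and 109, 195 and 157 in Act and 11.8, 27.2 and 11.8 in SB. The pluripotency factor SOX2 was 39.1 to 71.5 FPKM in the 12 libraries, whereas EPCAM and TDGF1, which are also common markers of pluripotent cells, were under 1 FPKM in each of them.

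KI was compared with WT to ask how cells carrying the reporter differed from unmodified cells. A gene was called at a log2 fold change of at least 1 in either direction and an adjusted p of at most 0.05 (limma, Benjamini-Hochberg over all genes tested). Of the 10 genes, THBS1, TIMP3, TNC and DCN were called more abundant in KI, and none was called less abundant. Over all 14014 genes tested, 324 were called (2.31%), 225 of them higher (1.61%) and 99 lower (0.706%). The values of KI and WT did not overlap for 7 of the 10 genes, against 35.7% of all genes tested. All 10 fitted differences were above 0, with a median log2 fold change of 0.75 against -0.0014 over all genes. The 10 genes were chosen with earlier results of these data known. These counts, this median and the p-values of the 10 genes below therefore describe that choice and are no independent test. Fold changes are on the log2(FPKM + 1) scale, which understates changes of low genes, and in these bulk libraries fewer cells of a type and less RNA per cell cannot be told apart.

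**Figure D1:**
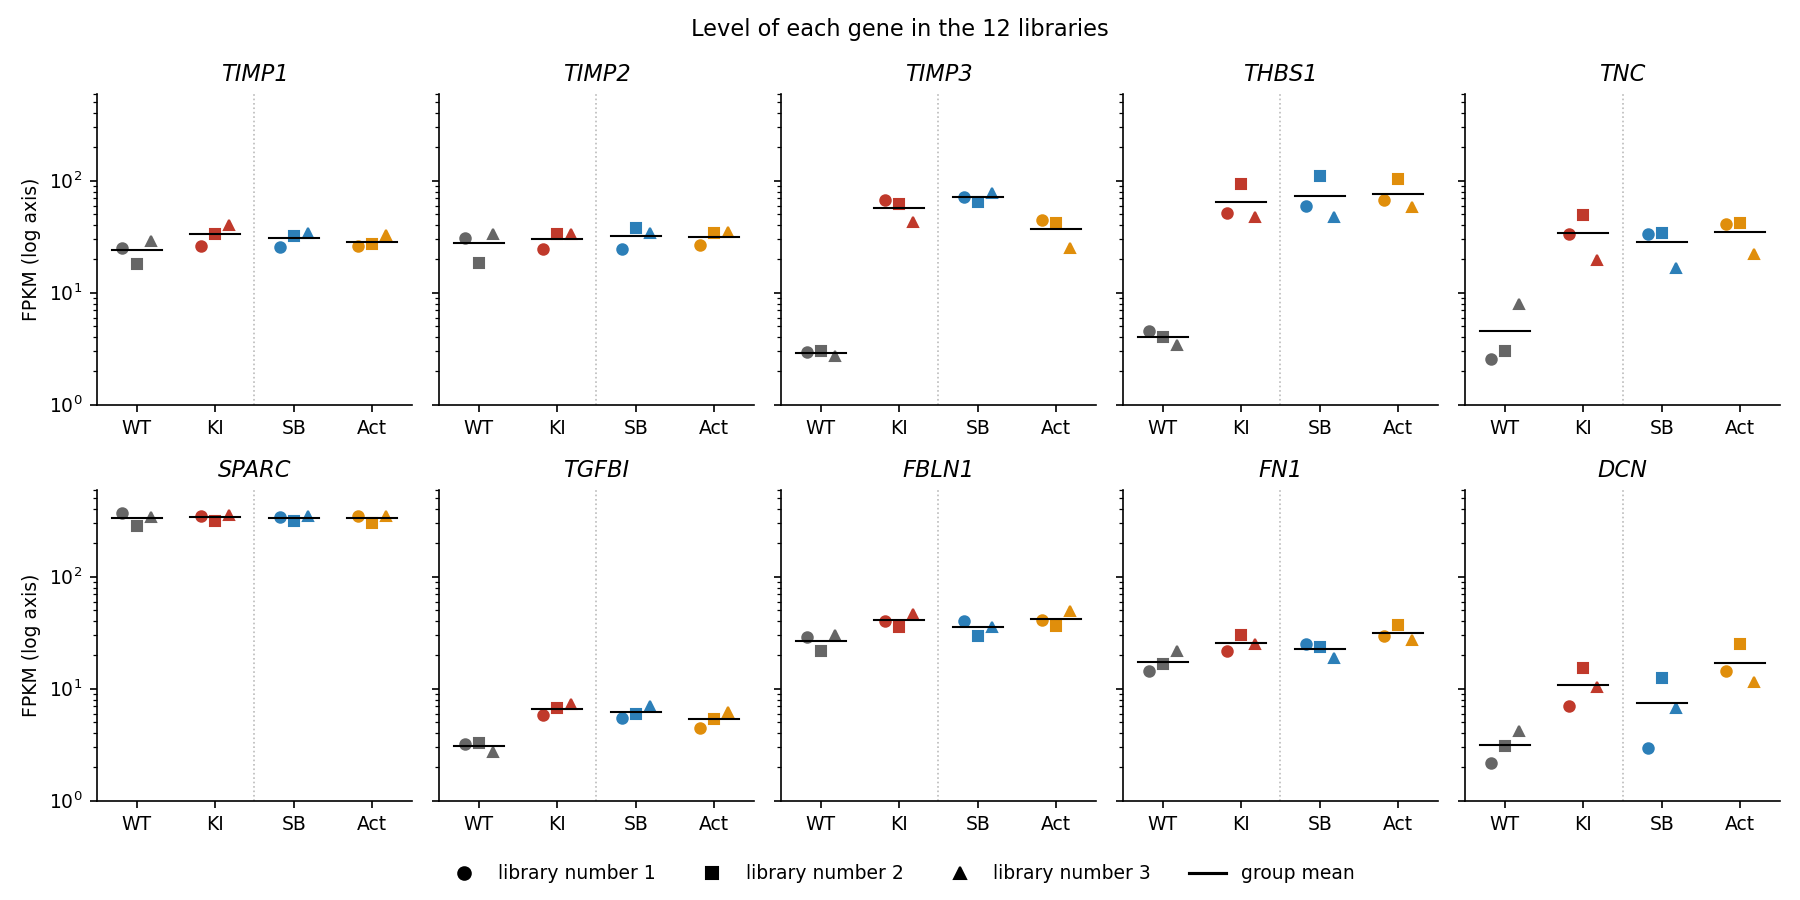
FPKM of each of the 10 genes on a log axis, by group, with 1 point per library (circle, square and triangle for libraries 1, 2 and 3), a bar at the group mean and a dotted line between the 2 tables. TIMP3 and THBS1 lie between 2.71 and 4.57 FPKM in WT and above 25 in every other library, while SPARC lies between 283 and 374 in all 12.

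Among the inhibitors, TIMP3 stood apart from its relatives. TIMP3 (ENSSSCG00000031866, chromosome 5, 12185816 to 12242599, Sscrofa11.1) was 66.9, 62.5 and 43.0 FPKM in KI and 2.98, 3.02 and 2.71 in WT. Every KI library was above every WT library, and the WT libraries lay close together. The mean was 57.5 ± 12.7 FPKM in KI and 2.90 ± 0.168 in WT (SD, n = 3 each), 19.8-fold higher. Its log2 fold change was 3.88 (SE 0.18, limma adjusted p = 0.000314), and the call held in each of 15 alternative fits (adjusted p from 0.000158 to 0.00812). The large rise of TIMP3 in KI was already known when it was chosen, so this p-value is no independent test. The gene lies within SYN3, which was not analysed here, and whether reads were counted by strand is not given in the sources used here.

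TIMP1 (ENSSSCG00000012277, chromosome X, 42103251 to 42106289) inhibits most secreted metalloproteinases. It was 26.2, 33.5 and 39.9 FPKM in KI and 24.8, 18.1 and 28.9 in WT, and the groups overlapped. Its log2 fold change was 0.46 (95% confidence interval -0.02 to 0.94, limma adjusted p = 0.189). The gene lies within SYN1, which was listed at 0.627 to 1.23 FPKM. TIMP2 (ENSSSCG00000017164, chromosome 12, 3254794 to 3300835), which also takes part in the activation of MMP2, was 24.5, 33.2 and 33.1 FPKM in KI and 30.7, 18.6 and 33.7 in WT. These values overlapped as well, with a log2 fold change of 0.16 (interval -0.38 to 0.69, limma adjusted p = 0.692). The levels of TIMP1 and TIMP2 thus stayed between 18.1 and 39.9 FPKM in all 12 libraries, and WT 2 was the lowest for both. TIMP2 and SPARC also overlap annotated neighbours, CEP295NL and a long non-coding RNA.

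The thrombospondin showed a difference of similar size to that of TIMP3. THBS1 (ENSSSCG00000004789, chromosome 1, 131728781 to 131746098) was 50.9, 93.1 and 47.9 FPKM in KI and 4.57, 4.04 and 3.39 in WT. The lowest KI library was well above the highest WT library, and KI 2 was the highest of the KI and WT libraries. The mean was 63.9 ± 25.3 FPKM in KI and 4.0 ± 0.589 in WT (SD, n = 3 each), 16.0-fold higher. Its log2 fold change was 3.64 (SE 0.25, limma adjusted p = 0.00129), and this call too held in all 15 alternative fits (adjusted p from 0.000742 to 0.00905). The rise of THBS1, too, was already known, so this p-value is no independent test.

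TNC, the tenascin that interferes with adhesion to fibronectin, was also more abundant in KI. TNC (ENSSSCG00000005494, chromosome 1, 255533235 to 255630381) was 33.1, 49.4 and 19.6 FPKM in KI and 2.54, 3.03 and 7.96 in WT. The groups did not overlap, but both were spread out, with KI 3 the lowest of its group and WT 3 the highest. The mean was 34.0 ± 14.9 FPKM in KI and 4.51 ± 3.0 in WT (SD, n = 3 each), 7.55-fold higher, with a log2 fold change of 2.71 (SE 0.42, limma adjusted p = 0.0184). The call did not hold without KI 1, KI 2, WT 1 or WT 2 (limma adjusted p = 0.0656, 0.0557, 0.0571 and 0.0529), with log2 fold changes between 2.40 and 2.68 in these fits. It was also lost with the number as a block (limma adjusted p = 0.0534).

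SPARC, a collagen-binding glycoprotein, was the most abundant of the 10 genes in every group. SPARC (ENSSSCG00000017082, chromosome 16, 71368164 to 71380972) was 347, 316 and 353 FPKM in KI and 374, 283 and 338 in WT. The WT values lay on both sides of the KI values. The mean was 339 ± 19.7 FPKM in KI and 332 ± 45.6 in WT (SD, n = 3 each), and the log2 fold change was 0.04 with a 95% confidence interval of -0.25 to 0.32 (limma adjusted p = 0.87). A difference of the size seen for TIMP3, THBS1, TNC or DCN lies outside this interval. The steady level of SPARC and the large rise of TIMP3 and THBS1 were already known, so this contrast is a description and carries no test.

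The other adhesive proteins had smaller differences and were not called. TGFBI (ENSSSCG00000014316, chromosome 2, 138191793 to 138225373), a secreted integrin ligand induced by TGF-β, was 5.88, 6.68 and 7.36 FPKM in KI and 3.18, 3.27 and 2.70 in WT. Its groups did not overlap, and its adjusted p passed (0.0195, limma) at a log2 fold change of 0.92 (SE 0.15), below the limit of 1. With a pseudocount of 0.1 or 0.01, or after rescaling to TPM, the log2 fold change was 1.10, 1.12 or 1.06 and TGFBI was called. Its adjusted p did not pass without KI 1 or KI 2 (limma adjusted p = 0.0627 and 0.0761), nor with the number as a block (0.0546).

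FBLN1 (ENSSSCG00000000010, chromosome 5, 3839498 to 3927178), a fibulin of elastic fibres and basement membranes, was 40.5, 35.2 and 46.2 FPKM in KI and 28.9, 21.8 and 30.0 in WT. The values separated, with a log2 fold change of 0.58 (SE 0.16, limma adjusted p = 0.0649). FN1 (ENSSSCG00000016174, chromosome 15, 117658158 to 117737145), the fibronectin that cells bind through integrins, was 21.5, 30.1 and 25.2 FPKM in KI and 14.3, 16.5 and 21.5 in WT. KI 1 and WT 3 were nearly equal, and the log2 fold change was 0.54 (SE 0.18, limma adjusted p = 0.107). 

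DCN encodes decorin, a small proteoglycan that binds collagen and TGF-β. DCN (ENSSSCG00000000915, chromosome 5, 91678601 to 91713925) was 6.94, 15.2 and 10.4 FPKM in KI and 2.15, 3.06 and 4.21 in WT. All KI libraries were above the WT libraries, at 10.8 ± 4.12 against 3.14 ± 1.03 FPKM (SD, n = 3 each), 3.45-fold higher. The log2 fold change was 1.49 (SE 0.29, limma adjusted p = 0.0312). The call did not hold without KI 2, KI 3, WT 1 or WT 2 (limma adjusted p = 0.0882, 0.0661, 0.0853 and 0.0743), nor without the filter on low values (limma adjusted p = 0.0599). In the exact two-sided permutation test of single genes, the 7 genes whose groups did not overlap reached p = 0.1, the smallest that 3 against 3 libraries can give.

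**Figure D2:**
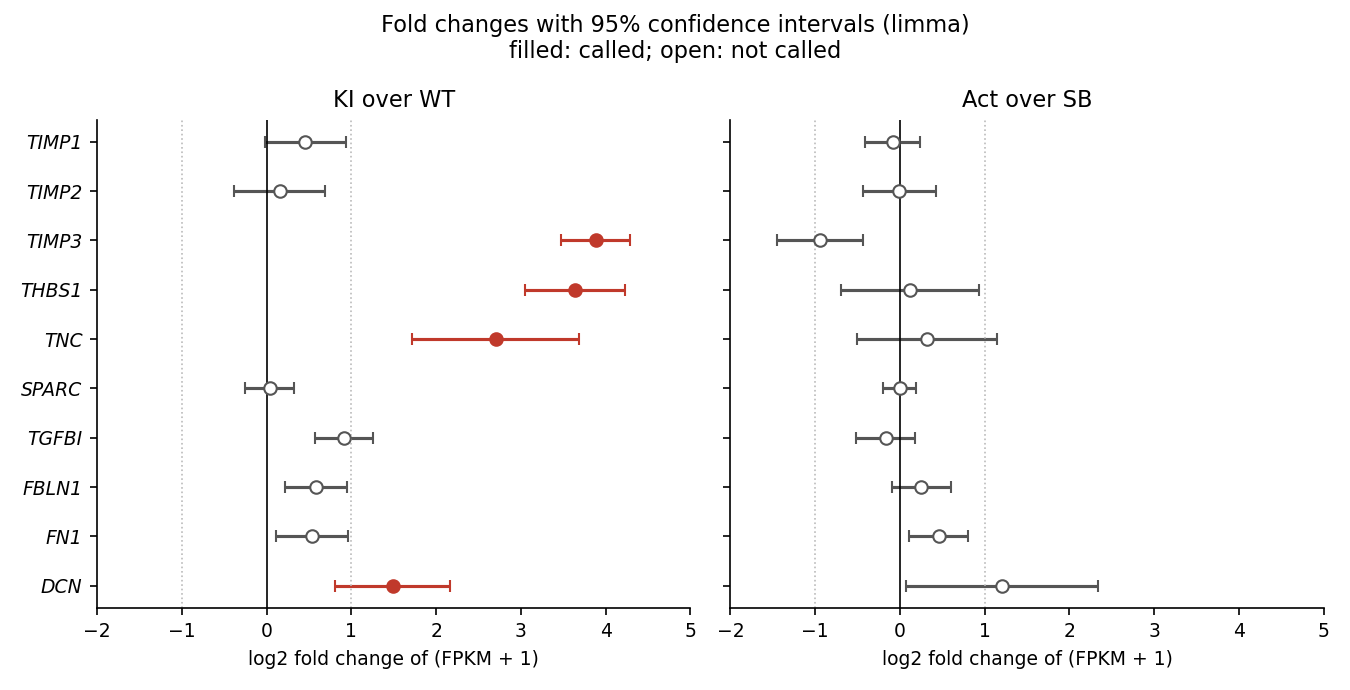
Log2 fold change of FPKM + 1 for each of the 10 genes with its 95% confidence interval from limma, KI over WT on the left and Act over SB on the right; filled points were called and dotted lines mark a log2 fold change of 1 in either direction. TIMP3, THBS1, TNC and DCN are filled on the left, no gene is filled on the right, and the intervals of SPARC, -0.25 to 0.32 and -0.20 to 0.19, span 0 in both.

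The steady level of SPARC allowed TIMP3 and THBS1 to be expressed relative to it within each library, which does not depend on the scaling of libraries. TIMP3 was 19.3%, 19.8% and 12.2% of SPARC in KI and 0.798%, 1.07% and 0.802% in WT. THBS1 was 14.7%, 29.4% and 13.6% of SPARC in KI and 1.22%, 1.43% and 1.00% in WT. The difference was 19.0-fold for TIMP3 and 15.0-fold for THBS1 between geometric means. These genes were set against SPARC because their large rise and its steady level in KI and WT were already known, so these ratios describe that choice and carry no test. The share of SPARC in the summed FPKM of the 10 genes was 46.8% to 56.4% in KI and 71.4% to 76.6% in WT.

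**Figure D3:**
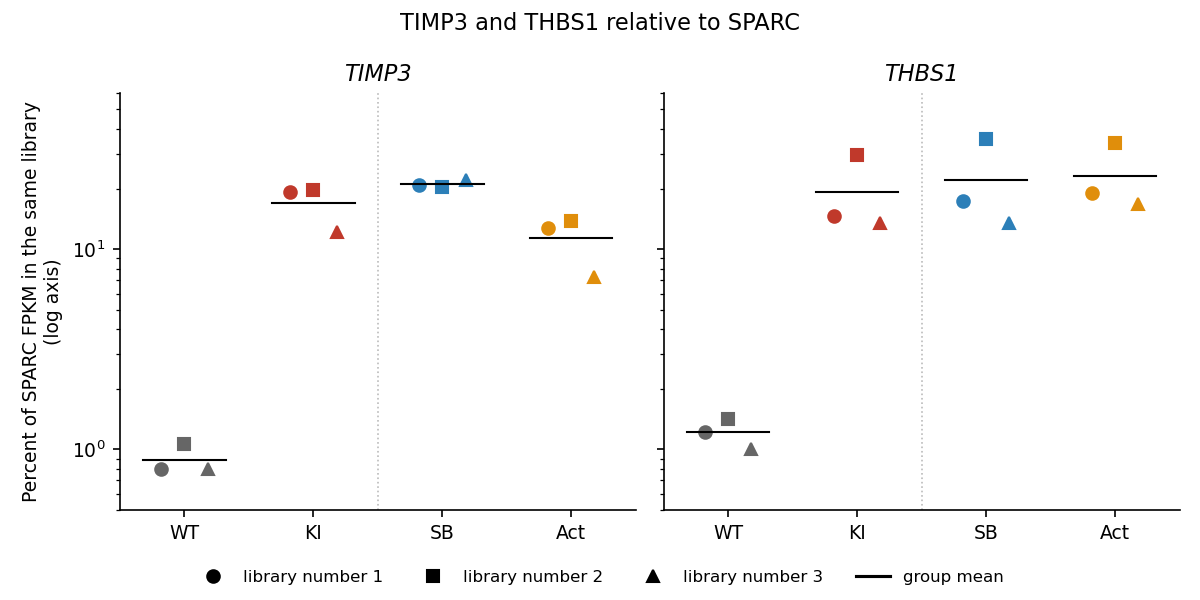
TIMP3 and THBS1 as a percentage of SPARC FPKM in the same library, on a log axis, by group, with 1 point per library and a bar at the mean. WT lies between 0.798% and 1.43%, and all other libraries between 7.31% and 35.4%.

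Act was compared with SB to ask how the genes differed between stimulation and blockade of the Activin pathway in knock-in reporter cells. None of the 10 genes was called by limma, while 3 of them, TIMP3, FN1 and DCN, had an unadjusted p under 0.05, as did 12.8% of all genes tested. Over all 13999 genes tested, 13 were called (0.0929%), 8 higher (0.0571%) and 5 lower in Act (0.0357%). Act and SB did not overlap for TIMP3 and FN1, 2 of the 10 genes, against 20% of all genes tested. The median log2 fold change of the 10 genes was 0.06, against -0.0040 over all genes. Libraries of the same number in Act and SB deviated together across genes. With the number as a block, 99 of 13999 genes were called (0.707%) and again none of the 10, of which 5 had an unadjusted p under 0.05 (TIMP3, DCN, FN1, TNC and FBLN1), as did 23.7% of all genes tested.

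TIMP3 was 44.5, 42.1 and 25.3 FPKM in Act and 71.5, 63.8 and 77.2 in SB. Each SB library was above each Act library, at a mean of 70.9 ± 6.71 against 37.3 ± 10.5 FPKM (SD, n = 3 each), 1.90-fold higher in SB. The log2 fold change of Act over SB was -0.95 (95% confidence interval -1.45 to -0.44), short of the limit of 1 in size. The adjusted p was 0.168 (limma) and 0.0876 with the number as a block, so TIMP3 passed neither limit and was not called. Relative to SPARC, TIMP3 was 12.8%, 13.8% and 7.31% in Act and 20.9%, 20.5% and 22.2% in SB, 1.95-fold higher in SB. The smooth muscle actin ACTA2, a gene of the pericyte and smooth muscle list, was called lower in Act, at 8.32 ± 0.887 FPKM against 19.4 ± 1.07 in SB (SD, n = 3 each, log2 fold change -1.13, limma adjusted p = 0.0346). Leaving out any 1 of the 6 libraries ended the call of ACTA2 (limma adjusted p from 0.0902 to 0.161), whereas it held with the number as a block (0.0138).

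DCN and FN1 leaned the other way. DCN was 14.4, 25.2 and 11.5 FPKM in Act and 2.94, 12.6 and 6.76 in SB, which overlapped because SB 2 was above Act 3. The log2 fold change was 1.20 (SE 0.47, limma adjusted p = 0.365, and 0.0844 with the block), and within numbers DCN was 4.91-, 2.00- and 1.71-fold higher in Act. FN1 was 29.8, 36.9 and 27.1 FPKM in Act and 25.0, 23.3 and 19.0 in SB, with a log2 fold change of 0.46 (SE 0.15, limma adjusted p = 0.286, and 0.0733 with the block). All FN1 values of Act were above those of SB, although the nearest libraries, Act 3 and SB 1, differed little.

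THBS1, which differed strongly between KI and WT, was 66.5, 103 and 58.5 FPKM in Act and 59.8, 110 and 47.0 in SB. The groups covered the same range, and in both of them library 2 was the highest. The log2 fold change was 0.12 with an interval of -0.69 to 0.94 (limma adjusted p = 0.909), and with the number as a block the interval was -0.10 to 0.35. TNC was 41.3, 41.8 and 22.0 FPKM in Act and 33.3, 34.2 and 16.7 in SB, and library 3 was the lowest in both groups. TNC was 1.22- to 1.32-fold higher in Act within each number, with a log2 fold change of 0.32 (limma adjusted p = 0.735, and 0.0579 with the block).

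SPARC was 347, 304 and 346 FPKM in Act and 342, 311 and 347 in SB, and its log2 fold change was -0.0046 (interval -0.20 to 0.19, limma adjusted p = 0.989). TIMP1 and TIMP2 also overlapped between the groups, with intervals of -0.41 to 0.24 and -0.44 to 0.42. TGFBI was 4.46, 5.41 and 6.22 FPKM in Act and 5.44, 5.89 and 7.07 in SB, with an interval of -0.52 to 0.18. FBLN1 was 41.0, 36.5 and 49.2 FPKM in Act and 40.3, 29.6 and 35.9 in SB, with an interval of -0.10 to 0.61. Within numbers, 4 of the 10 genes (DCN, FN1, TNC and FBLN1) were higher in Act in 3 of 3 pairs, 2 (TIMP3 and TGFBI) were lower in 3 of 3, and the other 4 were mixed. The share of all genes with the same direction in 3 of 3 pairs was not counted, so this describes the 10 genes only.

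**Figure D4:**
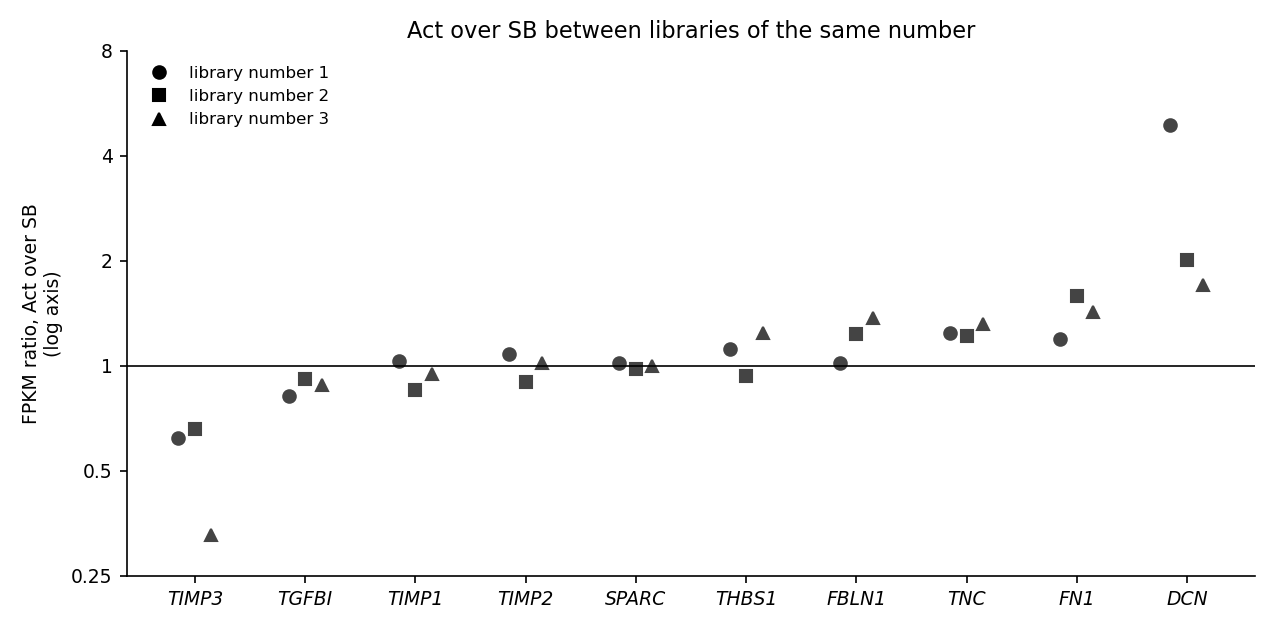
Ratio of FPKM in Act to FPKM in SB between libraries of the same number (circle, square and triangle for 1, 2 and 3), on a log axis, with the genes ordered by their log2 fold change. TIMP3 lies between 0.327 and 0.659, SPARC between 0.978 and 1.02, and DCN between 1.71 and 4.91.

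The pattern by library number ran through all knock-in reporter groups. Library 2 was the highest of its group for THBS1 and DCN, and the lowest for SPARC and FBLN1, in KI, Act and SB alike. Library 3 was the lowest for TNC in all 3 groups and the highest for TGFBI. WT did not share this pattern for THBS1, DCN, TNC or TGFBI, where WT 1, WT 3, WT 1 and WT 2 held these places. WT 2, too, was the lowest of its group for SPARC and FBLN1. As a description across genes, deviations from the group mean correlated at r = 0.51 to 0.67 between KI and either treated group within a number. These genes were picked out after their values were seen, genes are not independent replicates, and the labels do not tie the treated libraries to KI lines by anything but the number.

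Levels in the 4 groups were set side by side without a test, because table, medium and treatment cannot be told apart between the 2 tables. For TIMP3, THBS1, TNC and TGFBI, every Act library and every SB library lay above every WT library. Mean THBS1 was 76.0 ± 23.8 FPKM in Act and 72.3 ± 33.4 in SB (SD, n = 3 each), near the 63.9 of KI and far from the 4.0 of WT. Mean TNC was 35.0 ± 11.3 FPKM in Act and 28.1 ± 9.85 in SB. For DCN, FBLN1 and FN1 the Act libraries were above WT while SB overlapped WT, and for SPARC, TIMP1 and TIMP2 both overlapped it. None of the 10 genes had Act or SB values entirely outside the range of KI. How many of all genes lay inside or outside the ranges of KI or WT was not counted, so these statements describe the 10 genes only.

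Since FPKM is scaled to gene length, levels of different genes can be ordered within a group. In WT, SPARC at 332 FPKM was followed by TIMP2, FBLN1, TIMP1 and FN1, at means of 27.7, 26.9, 24.0 and 17.5 FPKM, neighbours whose ranges overlapped. TNC, THBS1, DCN, TGFBI and TIMP3 came last, at means between 4.51 and 2.90 FPKM, and each overlapped the next. In KI, SPARC was followed by THBS1, TIMP3, FBLN1, TNC, TIMP1, TIMP2 and FN1, with mean levels falling from 63.9 to 25.6 FPKM and every neighbour overlapping. DCN and TGFBI stood lowest in KI, as in Act and SB, so that TIMP3 was at the bottom of the order in WT and directly below THBS1 in KI and SB. In Act it stood below FBLN1, at a mean level of 37.3 FPKM that overlapped both FBLN1 and TNC.

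The genes whose log2(FPKM + 1) followed these patterns most closely over the 12 libraries were found among 10160 genes. For TIMP3 they were MYL9, CCND1 and NAB2, with Pearson's r of 0.99, 0.98 and 0.98. Mean MYL9 was 57.7 FPKM in KI, 12.5 in WT, 47.2 in Act and 63.2 in SB, an order of groups that is also that of TIMP3. For THBS1 they were PDLIM1, CNN1 and PSMD3 (r of 0.98 each), and for TNC they were RNF43, COL2A1 and ADAMTS7 (0.98 each). FN1 was followed by HSPBP1, SPSB1 and ZMIZ2 (0.94 each), and SPARC by UBE2V1, NUMA1 and CD276 (0.92, 0.92 and 0.91). Among the members, r was 0.94 between THBS1 and TIMP3, 0.93 between THBS1 and TNC and 0.82 between TIMP1 and TIMP2, and it was between -0.25 and 0.54 for SPARC with any other. These values are descriptions: for TIMP3, THBS1 and TNC the WT libraries lie apart from all others, and libraries share tables and numbers.

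Related genes were read from lists drawn up by function. The counts at an unadjusted p under 0.05 stand beside 28.6% of all genes tested in KI against WT and 12.8% in Act against SB. Counts of genes without overlap stand beside 35.7% and 20%. The list counts come from fits without the number as a block, although libraries of the same number in Act and SB deviated together. An absent call in Act against SB is therefore limited to those fits. Of 24 other matricellular genes tested in KI against WT, 2 were called higher and none lower, with a median log2 fold change of 0.03. An unadjusted p under 0.05 (limma) was found for 8 of the 24. Among these 8, SPARCL1 and FMOD reached the filter of 0.1 FPKM only in WT. Their p-values are therefore partly set by the filter and are given no weight. The called genes were CCN1 and CCN2, secreted proteins of the CCN family that bind integrins. CCN1 was 53.6, 68.6 and 45.9 FPKM in KI and 15.8, 4.16 and 2.54 in WT (log2 fold change 3.06, SE 0.52, limma adjusted p = 0.0219). CCN2 was 56.6, 93.9 and 67.8 FPKM in KI and 21.2, 9.55 and 26.3 in WT (log2 fold change 1.96, SE 0.35, limma adjusted p = 0.025). Neither gene overlapped between the groups, but the call of CCN1 did not hold without KI 1, KI 2 or WT 2, nor that of CCN2 without KI 1, KI 2, KI 3 or WT 1 (limma adjusted p up to 0.076 and 0.0819). That of CCN2 was also lost without a filter (limma adjusted p = 0.0536) and with the number as a block (0.0594). The most abundant of this list, the secreted glycoprotein FSTL1, was 312 ± 19.7 FPKM in KI and 264 ± 51.1 in WT (SD, n = 3 each, limma adjusted p = 0.274). In Act against SB none of 23 was called by limma and 8 had an unadjusted p under 0.05, among them CCN2, at 171 ± 47.6 FPKM in Act and 55.4 ± 19.3 in SB (SD, n = 3 each, limma adjusted p = 0.126).

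TIMPs inhibit metalloproteinases of the MMP, ADAM and ADAMTS families. Of 20 genes of this list tested in KI against WT, which include TIMP4 and RECK, none was called by limma and 5 had an unadjusted p under 0.05, with a median log2 fold change of 0.15. In Act against SB, none of 22 was called and 5 had an unadjusted p under 0.05. The most abundant was MMP2, a gelatinase, at 96.7 ± 12.7 FPKM in KI, 73.6 ± 17.5 in WT, 113 ± 11.03 in Act and 75.0 ± 17.2 in SB (SD, n = 3 each, limma adjusted p = 0.18 and 0.258 within the tables). TIMP4, named here for its family, was below 1 FPKM in all 12 libraries.

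Of 14 receptors tested, CD47 was called higher in KI and none was called lower, with a median log2 fold change of 0.38. An unadjusted p under 0.05 (limma) was found for 7 of the 14. CD47, which binds thrombospondins, was 11.9, 18.5 and 19.0 FPKM in KI and 5.08, 4.92 and 6.53 in WT, so that the groups were apart (log2 fold change 1.41, SE 0.20, limma adjusted p = 0.0151, and 0.0574 without KI 2). The most abundant receptor, the integrin subunit ITGB1, was 112 ± 13.6 FPKM in KI and 100.1 ± 0.789 in WT (SD, n = 3 each, limma adjusted p = 0.384). In Act against SB none of 14 receptors was called by limma and 3 had an unadjusted p under 0.05. CD47 was 14.6, 19.6 and 18.2 FPKM in Act and 10.8, 29.1 and 17.5 in SB, which overlapped.

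The latent TGF-β genes, ligands and their binding proteins, gave no call among 7 tested in KI against WT or 8 in Act against SB (limma, with 2 and 1 at an unadjusted p under 0.05). LTBP4, the most abundant, was 14.4 ± 4.93 FPKM in KI and 8.18 ± 2.13 in WT (SD, n = 3 each, limma adjusted p = 0.144). Of 7 readouts of SMAD2/3 signalling, NANOG and TGIF1 were called higher in KI. The KI lines had been sorted for tdTomato joined to NANOG, so the call of NANOG in KI is tied to that selection. It is no independent test and is not read as a sign of signalling. NANOG and SMAD7 were called higher in Act than in SB, where SMAD7, an inhibitor of the pathway, was 7.28, 8.07 and 6.67 FPKM against 1.75, 1.11 and 1.37 (log2 fold change 1.80, limma adjusted p = 0.0237). LEFTY2, an inhibitor of Nodal, was 1.37, 0.783 and 1.20 FPKM in Act and listed at 0 in every SB library. It was also called, but it passed the filter on low values only through Act, so its call is partly set by the filter and is given no weight. The call of SMAD7 did not hold without any 1 of the 6 libraries (limma adjusted p from 0.0538 to 0.148), and that of NANOG held only without SB 2. The call of NANOG was also lost with a pseudocount of 0.01, without a filter, with a filter of 1 FPKM and without the variance trend (limma adjusted p = 0.063, 0.101, 0.0567 and 0.052). With the number as a block, the calls of NANOG and SMAD7 in Act against SB held (limma adjusted p = 0.0107 and 0.0163). In KI against WT, the call of NANOG held only without WT 3 among the single libraries (limma adjusted p from 0.0158 to 0.0794), and it was lost without a filter (0.0536). TGIF1, a co-repressor of SMAD proteins, was 71.5 ± 12.4 FPKM in KI and 27.7 ± 4.08 in WT (SD, n = 3 each, limma adjusted p = 0.00928), and its call held in all 15 alternative fits. Among the pluripotency markers, the RNA-binding protein gene LIN28A was called higher in KI (log2 fold change 2.08, limma adjusted p = 0.0184, and up to 0.0616 without KI 1 or WT 1) and was the most abundant.

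**Figure D5:**
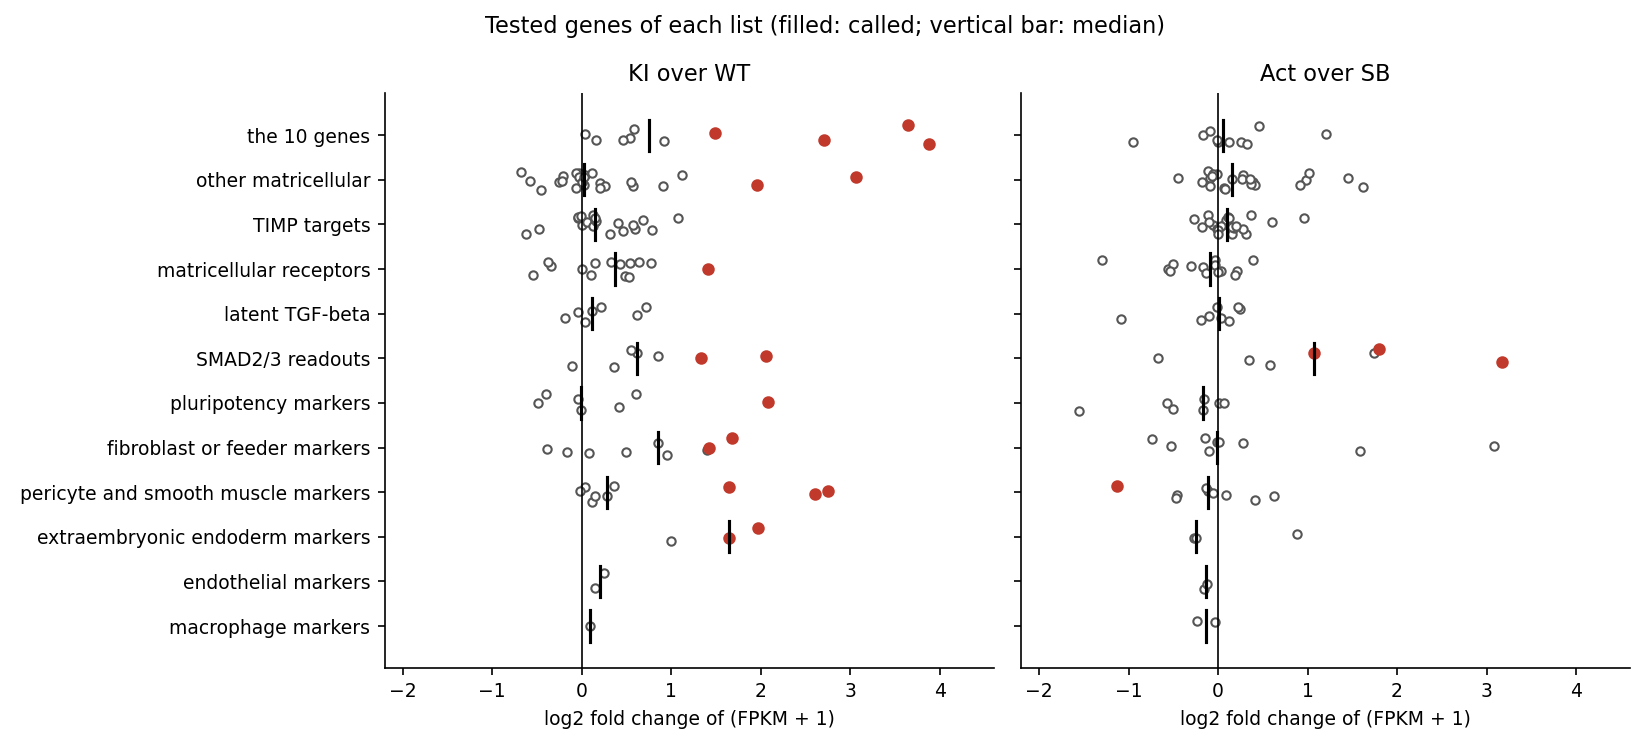
Log2 fold change of FPKM + 1 of every tested gene of each list, KI over WT on the left and Act over SB on the right; each point is a gene, filled points were called and vertical bars are medians. The 10 genes have a median of 0.75 on the left and 0.06 on the right, and the called genes on the right are NANOG, SMAD7 and LEFTY2 among the SMAD2/3 readouts, the last of which was tested only through its Act values, and ACTA2 among the pericyte and smooth muscle markers.

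The summed FPKM of a list was higher in every KI library than in every WT library for 9 of the 11 lists, all but the endothelial and macrophage markers. The pluripotency markers summed to 261 to 441 FPKM in KI and 182 to 195 in WT, the receptors to 224 to 261 and 182 to 203, and the TIMP targets to 223 to 246 and 175 to 218. A sum is set by its abundant genes: of 7 pluripotency markers tested, 3 (LIN28A, SOX2 and LIN28B) were higher in KI and the median log2 fold change was -0.013. In Act against SB, 3 lists had sums above and 3 had sums below all those of SB, and the pluripotency markers were among the lower, at 209.7 to 335 against 357 to 649 FPKM. Of the 7 pluripotency markers tested there, 2 were higher in Act, 1 did not overlap and none was called by limma, with a median log2 fold change of -0.16. How often the sums of other sets of genes did not overlap was not counted in either comparison. The summed FPKM of the 13 fibroblast or feeder markers was 77.9 to 88.8 in KI and 43.2 to 59.5 in WT, with the transcription factor genes TWIST1 and TWIST2 called higher among 9 tested. Of these 9 genes, 7 were higher in KI, 6 did not overlap and had an unadjusted p under 0.05 (the collagen gene COL1A1 lower and the rest higher in KI), and the median log2 fold change was 0.85. The calls did not hold without KI 1 or KI 2, and that of TWIST2 not without WT 2 (limma adjusted p up to 0.0729), and that of TWIST1 was lost with the number as a block (0.0546). FAP was listed at 0 in all 12 libraries, POSTN was at 0 in all 3 KI libraries, and LOX, the most abundant marker, was 39.0 ± 4.27 FPKM in KI and 37.0 ± 3.85 in WT (SD, n = 3 each). The 11 pericyte and smooth muscle markers summed to 61.3 to 64.8 FPKM in KI and 30.0 to 32.7 in WT, and 3 of 9 tested were called higher: CNN1, ACTA2 and the receptor gene PDGFRB, whose calls held in all 15 alternative fits. Among the 9 tested, 8 were higher in KI, but only 3 did not overlap, against 35.7% of all genes tested. An unadjusted p under 0.05 (limma) was found for 4 of the 9, and the median log2 fold change was 0.28. NOTCH3, the most abundant of these on average, was 15.0 ± 3.16 FPKM in KI and 13.5 ± 2.91 in WT (SD, n = 3 each). In the treated groups this list summed to 54.3 to 59.1 FPKM in Act and 69.0 to 74.0 in SB.

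The 9 extraembryonic endoderm markers summed to 45.8 to 83.2 FPKM in KI and 16.9 to 20.8 in WT, with APOA1 and LAMB1 called among 3 tested. All 3 genes tested were higher in KI without overlap, while 35.7% of all genes tested did not overlap in either direction. The 3 genes had limma adjusted p-values of at most 0.05 and a median log2 fold change of 1.64. Neither call held without KI 1, KI 2 or WT 1, nor that of LAMB1 without WT 2 (limma adjusted p up to 0.0616 and 0.109). That of LAMB1 was also lost without a filter (limma adjusted p = 0.0674) and with the number as a block (0.0598), and GATA4, SOX17 and TTR were listed at 0 in all KI and WT libraries. The 6 endothelial markers and the 5 macrophage markers summed to at most 1.35 and 1.51 FPKM in any KI or WT library, with PECAM1 and CD68 the most abundant, and none was called by limma (1 and 0 at an unadjusted p under 0.05). The part of the cells these lists mark, or of the lower depth of WT, in the differences of TIMP3, THBS1, TNC and DCN was not tested.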

How the data were processed

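RNA from 12 libraries was sequenced from oligo(dT) cDNA. Per the labels and the study's methods, the authors used bcl2fastq 2.17.1.14, HISAT2 2.0.4 and StringTie 1.3.3, with featureCounts 1.6.4 and DESeq2 for their own tests, on the Ssc11.1 genome. The deposited values are FPKM per gene in 2 tables of 24358 genes (WT with KI, Act with SB), without counts, so no counting interval is given.

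A gene entered the test of a table when 3 of its 6 libraries reached 0.1 FPKM, and was tested on log2(FPKM + 1) with limma 3.58.1 in R 4.3.3, with a variance trend and Benjamini-Hochberg adjustment, only within a table. Because the files hold FPKM, limma stood in for the count test. Single genes were compared by exact permutation. Alternatives were other pseudocounts, filters, scalings, no variance trend, the replicate number as a block, and leaving out each library. Relative depth was taken from the commonest ratio of values under 0.05 FPKM between libraries.

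Act and SB libraries of the same number were treated as pairs for the block, because their deviations from the group means correlated at r = 0.40, 0.59 and 0.53 over 13999 genes. KI and WT were not (r = -0.02, 0.01 and 0.09). The numbers come from the sample titles.

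The members and lists were chosen with earlier results of these data known. Named beside the 10 genes were, from each list, the called genes and the one with the highest mean FPKM, and the 3 genes of highest Pearson r with TIMP3, THBS1, TNC, FN1 and SPARC among genes of at least 1 FPKM on average in each table. Outside this rule, defining markers at or near 0 (FAP, POSTN, GATA4, SOX17, TTR, EPCAM and TDGF1), SOX2, LIN28B, COL1A1, TIMP4 and FMOD were named after their values were seen. Symbols are the deposited ones, filled from a table of Ensembl names, and positions are those of RefSeq on Sscrofa11.1, where 10 of 10 matched. POU5F1 and DPPA4 are not analysed here.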

Additional observations from a re-analysis of the deposited data

How the results depend on the processing

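Over 15 alternatives each, the log2 fold changes of TIMP3 (3.76 to 4.28) and THBS1 (3.34 to 3.94) between KI and WT kept their direction and call. The 4 calls among the 10 genes fell to between 2 and 4 when 1 library was left out, with 2 left without KI 2, WT 1 or WT 2, and TNC and DCN the calls that were lost. Calls over all genes ranged from 117 to 303 higher and 28 to 143 lower in those fits. With a pseudocount of 0.1 they were 346 higher and 192 lower, and calls lower were 181 with a pseudocount of 0.01, 42 without a filter and 156 after TPM rescaling. The replicate block, with unpaired KI and WT numbers, left 172 higher and 60 lower and 3 of the 10 genes called (TNC at a limma adjusted p of 0.0534). A pseudocount of 1 in both genes gave a log2 ratio of TIMP3 to SPARC 3.84 higher in KI than in WT, against 4.25.

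In Act against SB, none of the 10 genes was called in any alternative. Leaving out 1 library gave 0 to 4 genes called higher and 0 to 1 lower. Calls were 5 and 3 with a pseudocount of 0.01, 3 and 2 without a filter, 2 and 3 with a filter of 1 FPKM, 3 higher without the variance trend, and 73 and 26 with the replicate block, which changed no call of a member. The log2 ratio of THBS1 to SPARC changed sign, from -0.18 to 0.53 in those 6 fits.

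Fitted differences near 0 changed sign as well. Between KI and WT, SPARC was -0.015 after quantile normalization and -0.072 to 0.13 with 1 library left out, and TIMP2 was -0.10 to 0.32, both lowest without WT 2. Between Act and SB, median-ratio scaling gave 0.0054 for SPARC and 0.0027 for TIMP2. Leaving out 1 library gave ranges of -0.14 to 0.47 for THBS1, -0.0048 to 0.61 for TNC, -0.054 to 0.058 for SPARC, -0.21 to 0.00086 for TIMP1 and -0.19 to 0.12 for TIMP2. The cause of these changes was not tested. No scaling moved the median of all genes by over 0.1. The lowest values of TIMP3 and THBS1 in WT, near 3 FPKM, are above the tested minimum of 0.1 FPKM. The part of depth in these values was not tested, and depth limits genes listed at 0.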

Other observations

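The following genes of the lists were chosen after their values were seen and fall outside the rule for named genes; none of them was called. THBS4, another thrombospondin, was 8.63, 6.39 and 6.64 FPKM in Act and 1.18, 2.88 and 2.16 in SB, and no Act library overlapped an SB library (limma adjusted p = 0.0934). ITGB8, an integrin subunit that takes part in the release of latent TGF-β, was 2.78, 4.43 and 3.84 FPKM in Act and 9.63, 8.61 and 13.3 in SB (limma adjusted p = 0.0929). TGFB2, a TGF-β ligand, was 1.91, 1.06 and 1.43 FPKM in Act and 5.58, 2.57 and 4.93 in SB (limma adjusted p = 0.185). FBLN2, a relative of FBLN1, was 5.20, 6.78 and 7.23 FPKM in KI and 3.30, 2.65 and 2.86 in WT, with a log2 fold change of 0.90 below the limit of 1 (limma adjusted p = 0.0252). SPARCL1, a relative of SPARC, went the other way at low levels, with 0.0854, 0.0829 and 0.0556 FPKM in KI and 0.466, 0.643 and 0.737 in WT. It passed the filter on low values only through WT, so no test is given.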
